A study of Homo sapiens with 4 samples.

Results

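The nuclear-encoded subunits of respiratory chain complexes I to IV were described across 4 expression arrays of SUM159, an established cell line from a human breast carcinoma with mesenchymal features. A list of 56 subunit genes was matched by symbol to the array annotation, and a gene counted as measured where at least 1 probe set was annotated to it alone. That held for 50 of the 56 genes, out of 19775 genes on the array that have such a probe set. The 50 comprised 32 of 35 complex I genes (NDUF), 3 of 4 complex II genes (SDH), 5 of 7 complex III genes (UQCR and CYC1) and 10 of 10 complex IV genes (COX). NDUFC2, NDUFS5, NDUFS8 and UQCRH lay on probe sets annotated with another gene as well, and SDHB and UQCRFS1 were not matched to a probe set. NDUFA4, listed here with complex I for its older symbol, is annotated as COXFA4 and is now known as a complex IV subunit.

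The line carries pTRIPZ-mir-100, a construct from which doxycycline induces the microRNA miR-100. Cells were sorted by flow cytometry for aldehyde dehydrogenase activity (ALDH), a property used to enrich stem-like breast cancer cells, and were cultured in suspension. The 4 groups were ALDH-positive DOX, ALDH-positive control, ALDH-negative DOX and ALDH-negative control, with 1 array each, and all carried the construct. Sample titles give 10 h of doxycycline, whereas sample descriptions give 13 h and name doxorubicin, another drug, so the treated groups are called DOX here. No DOX-treated cells lacking the construct were analysed here, so that miR-100 and the drug itself cannot be told apart. The sources used here do not say whether the line is a single clone.

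The respiratory chain passes electrons from NADH and succinate to oxygen and pumps protons across the inner mitochondrial membrane. Complex I oxidises NADH and is the largest of the 4, complex II oxidises succinate and is also an enzyme of the citric acid cycle, complex III hands electrons to cytochrome c, and complex IV reduces oxygen. Most subunits are encoded in the nucleus and imported. Their genes are scattered over the chromosomes and share promoter motifs of a few transcription factors, among them NRF1, the ETS-family factor GABP, YY1 and SP1.

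The microRNA whose expression the construct drives is shown first because it defines the treatment. Its mature strand (RefSeq, GRCh38.p14, chr11:122152275-122152296, minus strand) is printed with the seed, bases 2 to 8, in capitals, and the arrays do not measure it.
hsa-miR-100-5p: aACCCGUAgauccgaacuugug

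Promoters were matched for 44 of the 50 measured genes, as RefSeq windows of 250 bases before to 50 bases after the start of the gene on GRCh38.p14. The letters searched on both strands were GCGCATGCG for NRF1, CCGGAAG for ETS factors, AAGATGGCG for YY1 and GGGGCGGGG for SP1. NRF1 letters were found in 6 of the 44 member promoters (13.6%), against 2.10% of 27305 promoters and 3.74% of the promoters of the genes measured here. YY1 letters were found in 6 (13.6%), against 1.85% of all promoters and 3.93% of those of measured genes. ETS letters were found in 12 (27.3%), against 10.7% and 19.2%, and SP1 letters in 7 (15.9%), against 16.0% and 27.5%. A match is a description of these windows and does not show that a factor binds. The windows below run from 100 bases before to 20 bases after the start, with every match in capitals, and they show 1 or more of the motifs each. NDUFA8 (chr9:122159760-122159879, minus strand) holds the NRF1 letters on both strands in overlapping positions. NDUFS6 (chr5:1801307-1801426, plus strand) holds SP1 and NRF1 letters. NDUFA9 (chr12:4649014-4649133, plus strand) holds the YY1 letters past the start. COX5B (chr2:97645962-97646081, plus strand) holds the ETS letters at 2 positions. COX8A (chr11:63974520-63974639, plus strand) holds them on the opposite strand.
NDUFA8: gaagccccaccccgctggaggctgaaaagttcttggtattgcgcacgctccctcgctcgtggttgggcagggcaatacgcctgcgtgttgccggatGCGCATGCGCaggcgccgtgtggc
NDUFS6: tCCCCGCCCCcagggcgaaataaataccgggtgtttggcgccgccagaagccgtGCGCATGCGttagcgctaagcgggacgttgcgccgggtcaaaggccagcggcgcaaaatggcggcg
NDUFA9: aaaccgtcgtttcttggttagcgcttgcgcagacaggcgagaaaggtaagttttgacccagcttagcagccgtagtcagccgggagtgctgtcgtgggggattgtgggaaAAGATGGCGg
COX5B: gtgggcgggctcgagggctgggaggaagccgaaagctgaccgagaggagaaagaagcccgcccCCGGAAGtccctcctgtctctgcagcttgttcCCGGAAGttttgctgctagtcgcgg
COX8A: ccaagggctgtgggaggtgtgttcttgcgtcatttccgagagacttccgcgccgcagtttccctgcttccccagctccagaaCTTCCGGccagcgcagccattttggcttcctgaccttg

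All values are log2 probe set levels as deposited, and each gene is given by its brightest probe set annotated to it alone. Since each group held 1 array, a difference between 2 arrays has no replicate check and no p-value. Differences of 1.5-fold or more (0.585 on the log2 scale) are counted by size, among genes with a log2 level of at least 6 in 1 or both arrays of the pair. A model with additive terms for ALDH and DOX used all 4 arrays, with 1 residual degree of freedom, and the difference between the DOX responses of the fractions cannot be tested. The array medians lay between 6.18 and 6.22, and correlations across probe sets were 0.983 for the ALDH-positive pair and 0.996 for the ALDH-negative pair. All 6 markers of a mesenchymal breast cancer line reached a level of 6 on all 4 arrays. Of 7 leukocyte markers 2 reached it in ALDH-positive DOX, 1 in ALDH-positive control and 0 in either ALDH-negative array. Of 4 endothelial markers 2 reached it in ALDH-positive DOX and 1 on each other array, and of 2 erythroid markers 1 reached it on both ALDH-positive arrays and 0 on the ALDH-negative ones. Several of these markers moved with the fraction. KDR, an endothelial receptor, was higher in ALDH-positive cells by 2.75 in DOX and 3.08 in control, and PECAM1, another endothelial marker, differed by -2.06 and -3.80. In the additive model the ALDH term passed for KDR (2.92, adjusted p = 3.09e-05), PECAM1 (-2.93, adjusted p = 1.74e-04), HBB (1.02, adjusted p = 0.0225), HLA-DRA (1.39, adjusted p = 0.0054) and MS4A1 (1.35, adjusted p = 0.0354). KDR and PECAM1 passed under all 9 alternatives of processing, and each of the other 3 missed the threshold or was not tested under some, MS4A1 after centring and after loess. Summed levels on the log2 scale were 8.24 and 7.91 for leukocyte, 8.74 and 8.70 for endothelial and 6.81 and 7.23 for erythroid markers in ALDH-positive DOX and control. In ALDH-negative DOX and control they were 7.36 and 7.42, 9.76 and 9.92, and 6.19 and 6.29. The part of these markers in the results below was not tested. In a bulk sample, fewer cells of a kind and less RNA per cell cannot be told apart.

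By their brightest probe sets, the subunit genes were highly expressed and among the steadier genes on the arrays. Their levels ran from 8.09 (NDUFS7, ALDH-negative control) to 13.39 (COX7C, ALDH-positive DOX), and all 50 passed the filter on level on every array. The range of a gene over the 4 arrays had a median of 0.35 over the members, from 0.09 for COX6C to 0.86 for NDUFS7. It stayed under 1.5-fold for 39 of 50 members (78.0%), against 48.1% of 12365 genes and 63.4% of genes with a mean level of at least 10. No member spanned 2-fold, against 24.0% of all genes and 11.5% of those bright genes. All SDH, UQCR, CYC1 and COX members stayed under 1.5-fold, and 21 of 32 NDUF members did. These ranges hold for the brightest probe sets only, since some dimmer ones, given below for NDUFS1 and COX7B among others, spanned more than 2-fold. The ALDH-positive DOX array held the highest value of 31 members, against 41.9% of all genes, and the ALDH-positive control array the lowest value of 24, against 29.2%.

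In ALDH-positive cells most subunit genes stood slightly higher with DOX than without. The DOX minus control difference had a median of 0.26 over the 50 members, a ratio of 1.20, against 0.12 over 12151 genes and 0.04 over 5668 genes with a mean level of at least 10. It was above 0 for 45 members, against 60.9% of all genes and 54.9% of the bright ones, and above the median of all genes for 39. These positions depend on scaling. With each array centred on its median over genes, the median of all genes moved to -0.02, that of the members to 0.13, and 38 of 50 members (76.0%, against 90.0% as deposited) lay above 0. Cyclic loess left 46 above 0. The medians were 0.27 for NDUF, 0.28 for SDH, 0.16 for UQCR and CYC1 and 0.16 for COX, and after centring 0.14, 0.15, 0.02 and 0.02. Only 3 members were higher by 1.5-fold or more, against 14.6% of all genes, and 0 were lower by as much, against 6.82%. After centring 1 was higher and 1 lower, since NDUFS7 (0.50) and NDUFA10 (0.49) then lay under the line and NDUFA5 (-0.62) passed it, and after loess 2 were higher and 0 lower, without NDUFS7 (0.55). As deposited, none differed by 2-fold, against 5.78% of all genes.

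**Figure D1:**
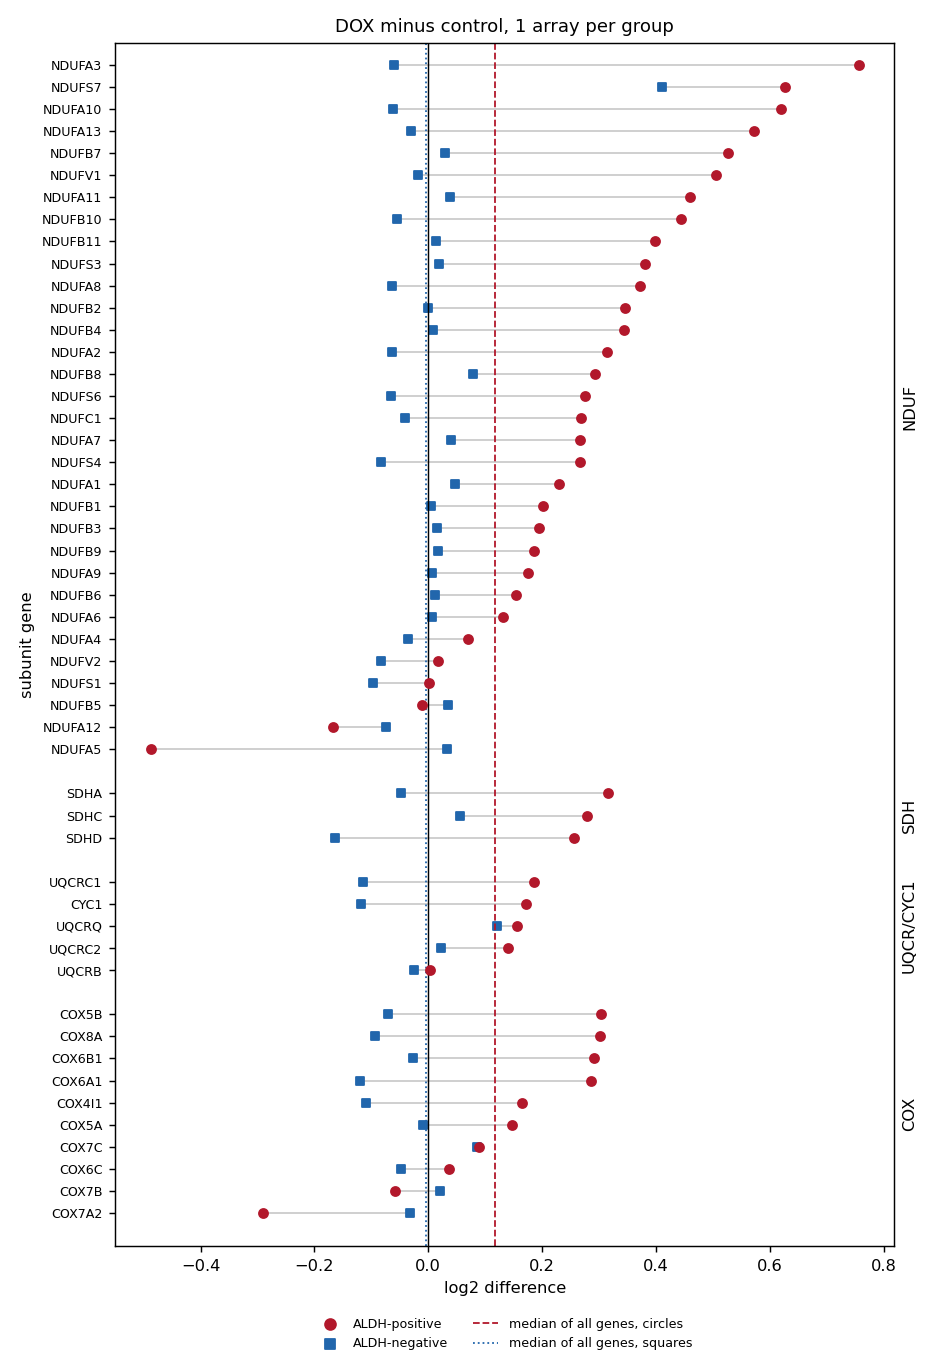
DOX minus control as a log2 difference (x axis) for each of the 50 measured subunit genes, grouped by complex, with circles for the ALDH-positive pair and squares for the ALDH-negative pair, and vertical lines at the median of all genes for each pair. The circles lie above 0 for 45 genes, from -0.49 for NDUFA5 to 0.76 for NDUFA3, while the squares stay between -0.16 and 0.41.

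The 3 largest differences in the ALDH-positive pair all belonged to complex I, as do 32 of the 50 measured members. NDUFA3, a small accessory subunit of the membrane arm, had a level of 9.28 in ALDH-positive DOX and 8.52 in ALDH-positive control, and of 9.04 in ALDH-negative DOX and 9.10 in ALDH-negative control. Its ALDH-positive control value was therefore the low one of the 4, and the difference in ALDH-positive cells was 0.76. NDUFS7, the core subunit that carries the last iron-sulfur cluster before ubiquinone, had 8.95 in ALDH-positive DOX and 8.32 in ALDH-positive control, and 8.50 in ALDH-negative DOX and 8.09 in ALDH-negative control. It was higher with DOX in both fractions, by 0.63 and 0.41, and was the dimmest of the 50. NDUFA10, an accessory subunit of the membrane arm, had 11.10 in ALDH-positive DOX and 10.48 in ALDH-positive control, and 10.34 in ALDH-negative DOX and 10.40 in ALDH-negative control. Here ALDH-positive DOX was the 1 high array, 0.62 above its control. Averaged over all their probe sets, the differences of NDUFA10 and NDUFS7 were 0.26 and 0.24.

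NDUFA13, also known as GRIM-19, followed with 0.57, NDUFB7 with 0.53 and NDUFV1, the subunit that binds NADH and FMN, with 0.50. NDUFV1 had 11.70 in ALDH-positive DOX and 11.20 in ALDH-positive control, against 11.09 in ALDH-negative DOX and 11.11 in ALDH-negative control. These lay just under the 1.5-fold line, and NDUFA13 and NDUFV1 again showed 1 high array, ALDH-positive DOX. At the other end NDUFA5, a subunit of the peripheral arm, had 11.12 in ALDH-positive DOX and 11.61 in ALDH-positive control, and 11.78 in ALDH-negative DOX and 11.74 in ALDH-negative control. Its difference of -0.49 was the lowest of all members, and ALDH-positive DOX was the low array. NDUFA12 (-0.17), NDUFB5 (-0.01), NDUFS1 (0.00), NDUFV2 (0.02) and NDUFA4 (0.07) made up the rest of the low end of NDUF.

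By role within complex I, the 5 measured core subunits had a median of 0.38, the 13 NDUFA subunits 0.27 and the 11 NDUFB subunits of the membrane arm 0.29. The core ran from 0.00 for NDUFS1 and 0.02 for NDUFV2 to 0.38 for NDUFS3, 0.50 for NDUFV1 and 0.63 for NDUFS7. The NADH-oxidising subunits thus lay apart from each other, NDUFV1 high and NDUFS1 and NDUFV2 near 0.

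The 3 measured complex II subunits were alike. SDHA, the flavoprotein that holds the succinate site, had 12.58 in ALDH-positive DOX and 12.26 in ALDH-positive control, a difference of 0.32. The membrane anchors SDHC and SDHD differed by 0.28 and 0.26, with 12.58 and 12.30 for SDHC and 11.54 and 11.29 for SDHD in the same order of arrays. In ALDH-negative cells SDHA differed by -0.05, SDHC by 0.06 and SDHD by -0.16, which was the lowest ALDH-negative value of all members.

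The complex III differences were smaller. UQCRC1 and UQCRC2, the core proteins, differed by 0.19 and 0.14, CYC1, which carries the haem of cytochrome c1, by 0.17, and the small subunits UQCRQ and UQCRB by 0.16 and 0.00. In ALDH-negative cells the values were -0.11 for UQCRC1, 0.02 for UQCRC2, -0.12 for CYC1, 0.12 for UQCRQ and -0.03 for UQCRB. UQCRB was nearly flat, at 12.96 in ALDH-positive DOX and 12.96 in ALDH-positive control, against 12.85 in ALDH-negative DOX and 12.87 in ALDH-negative control.

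In complex IV, COX5B (0.30), COX8A (0.30), COX6B1 (0.29) and COX6A1 (0.29) stood at the top in ALDH-positive cells. COX5B had 12.50 in ALDH-positive DOX and 12.20 in ALDH-positive control, and 12.14 in ALDH-negative DOX and 12.21 in ALDH-negative control. COX7A2 (-0.29), COX7B (-0.06) and COX6C (0.04) were lowest, and COX7A2 had 12.13 in ALDH-positive DOX and 12.42 in ALDH-positive control. COX4I1, the largest nuclear-encoded subunit and a site of regulation by ATP, differed by 0.17, COX5A by 0.15 and COX7C by 0.09.

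In ALDH-negative cells the differences of the subunit genes between DOX and control lay in a narrower band around 0. The median difference was -0.02, against 0.00 over 11819 genes, with 22 members above 0, against 48.7% of all genes, and 28 below, against 51.2%. The values ran from -0.16 to 0.41, and 0 members differed by 1.5-fold, against 1.77% of all genes either way, or 1.15% higher and 0.618% lower. Besides NDUFS7, the highest NDUF values were 0.08 for NDUFB8, 0.05 for NDUFA1 and 0.04 for NDUFA7, NDUFA11 and NDUFB5. The lowest were -0.10 for NDUFS1, -0.08 for NDUFS4 and NDUFV2, -0.07 for NDUFA12 and NDUFS6 and -0.06 for NDUFA8. In COX, COX7C (0.09) and COX7B (0.02) were highest with COX5A at -0.01, and COX6A1 (-0.12), COX4I1 (-0.11) and COX8A (-0.09) lowest.

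Set side by side, the DOX difference was larger in ALDH-positive than in ALDH-negative cells for 45 of 50 members, against 60.4% of 11605 genes. It was above 0 in both fractions for 19, against 31.0% of all genes, and below 0 in both for 2, against 22.0%. For 26 it was above 0 in ALDH-positive but below 0 in ALDH-negative cells, against 29.3%, and for 3 the reverse, against 17.6%. The additive DOX term, which counts such a divergence as error, passed for 0 of 50 members (limma, lowest adjusted p = 0.916), and 0 had an unadjusted p under 0.05. Over all genes 1 was higher (0.00809%) and 0 were lower. Without a trend in the variance model 1 member had an unadjusted p under 0.05.

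**Figure D2:**
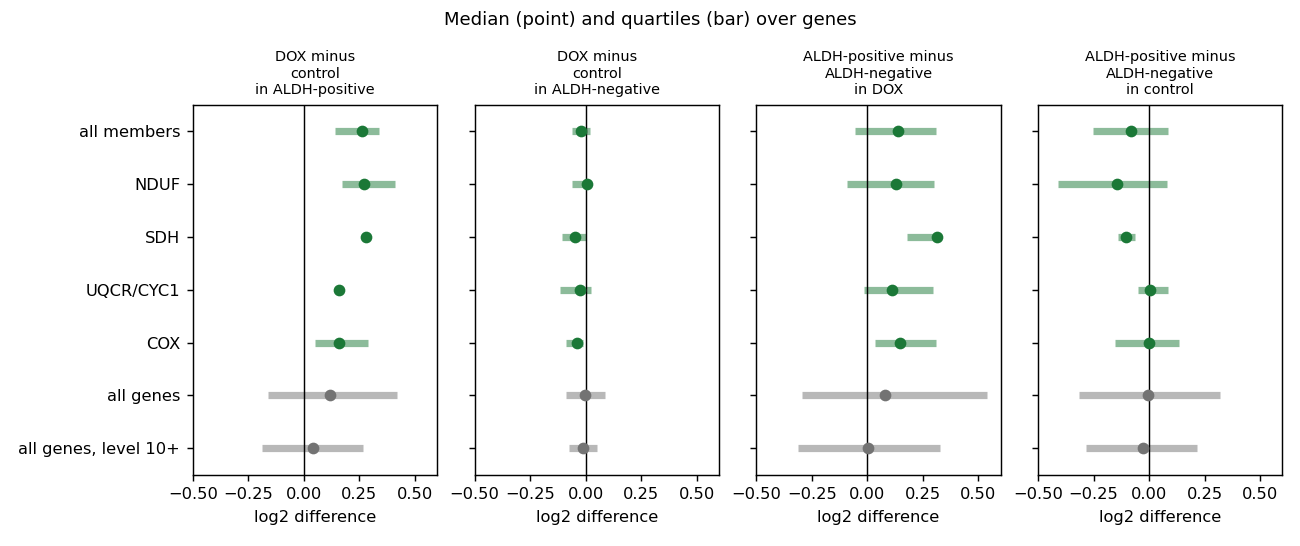
Log2 differences of the 4 array pairs, as the median (point) and quartiles (bar) over genes, for all members, each complex, all genes and genes with a mean level of at least 10. The members' median is 0.26 for DOX in ALDH-positive cells and lies between -0.08 and 0.14 in the other 3 pairs.

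Between the fractions without DOX, complex I lay on the lower side in ALDH-positive cells by the brightest probe sets. The ALDH-positive minus ALDH-negative difference had a median of -0.08 over the members, against 0.00 over 12052 genes, with 31 of 50 below 0, against 50.4% of all genes, and 19 above 0, against 49.6%. It was -0.15 for NDUF, with 21 of 32 below 0 as deposited, after centring and after loess. It was -0.11 for SDH, with 3 of 3 below 0 as deposited and 2 of 3 under either other scaling. The medians of UQCR with CYC1 (0.00) and of COX (0.00) were near 0, and the sign of the COX median turned with the scaling, to 0.03 after centring. This pair and the ALDH-positive DOX pair share the ALDH-positive control array, so a value that is low there enters both.

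Members lower by 1.5-fold or more numbered 3, against 12.3% of all genes, and 0 were higher by as much, against 13.8%. They were NDUFB6 (-0.79), NDUFS1 (-0.64) and NDUFS3 (-0.59), and NDUFA3 (-0.58), NDUFB7 (-0.58) and NDUFB2 (-0.50) lay just outside. With every probe set counted, 13 of 88 were lower by 1.5-fold or more and 1 was higher. The lower ones included dimmer probe sets of COX4I1 (-0.70), COX5A (-1.04), COX6A1 (-1.90), COX7B (-1.96), SDHC (-0.92) and UQCRB (-1.69), so that complex I did not stand alone. NDUFS3, a core subunit at the base of the peripheral arm, had 11.76 in ALDH-positive DOX and 11.37 in ALDH-positive control, and 11.98 in ALDH-negative DOX and 11.97 in ALDH-negative control. Both ALDH-positive values lay below both ALDH-negative ones. NDUFS7 (0.24), NDUFA11 (0.22), NDUFB5 (0.22), NDUFB8 (0.17), NDUFS4 (0.13) and NDUFB9 (0.11) were the highest of NDUF. Among COX, COX7C (0.15), COX8A (0.14) and COX7A2 (0.14) were highest and COX4I1 (-0.26), COX7B (-0.19) and COX6B1 (-0.18) lowest. SDHC differed by -0.18, SDHD by -0.11 and SDHA by -0.02, and in complex III UQCRC2 differed by 0.27, UQCRB by 0.08, CYC1 by 0.00, UQCRQ by -0.05 and UQCRC1 by -0.35.

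**Figure D3:**
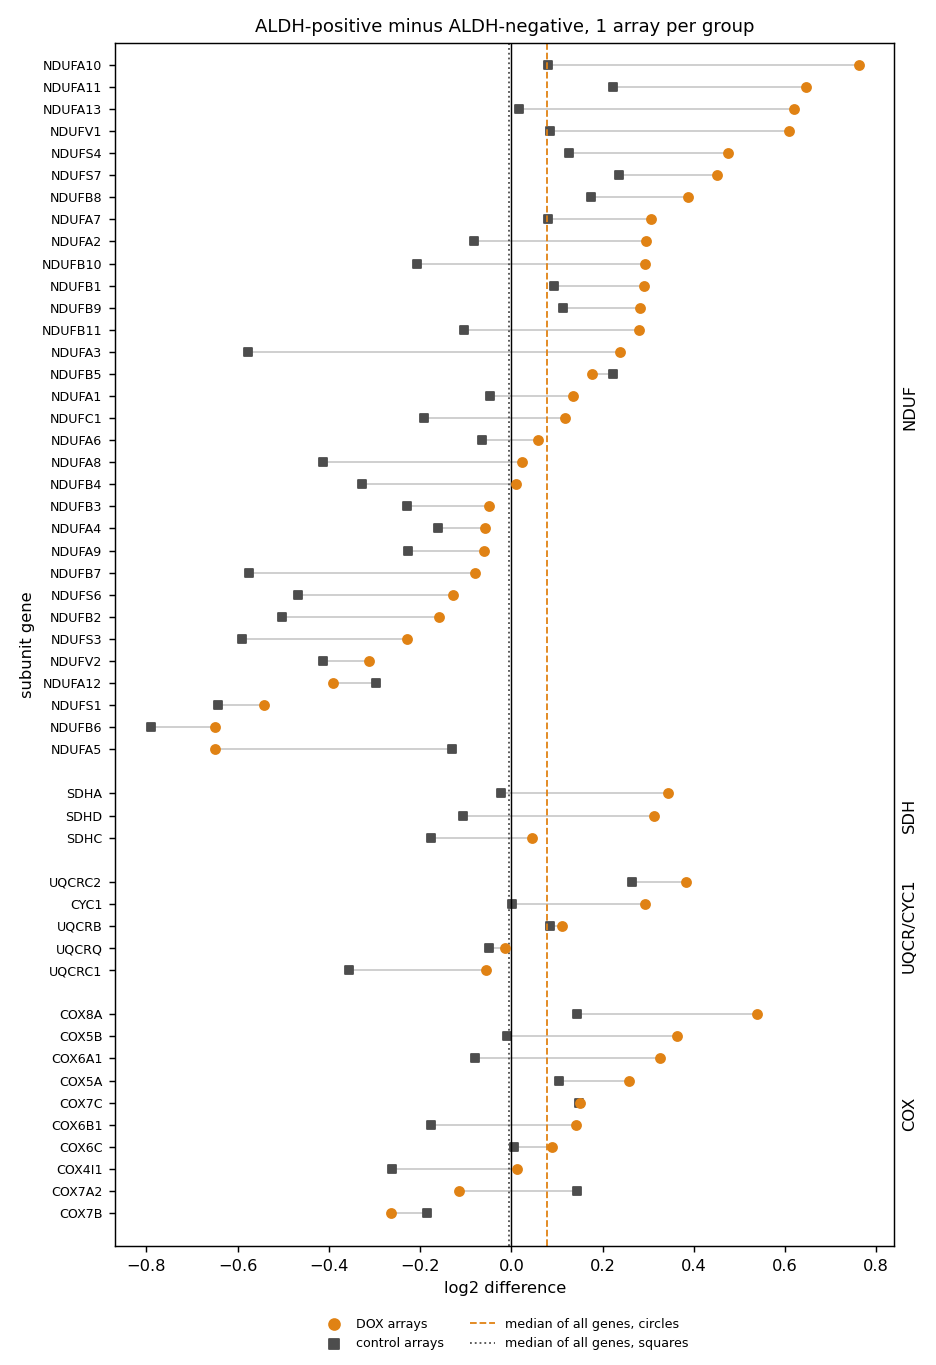
ALDH-positive minus ALDH-negative as a log2 difference (x axis) for each of the 50 measured subunit genes, grouped by complex, with circles for the DOX arrays and squares for the control arrays, and vertical lines at the median of all genes for each pair. The DOX circle lies to the right of the control square for 45 of 50 genes, and NDUFB6, NDUFS1, NDUFV2 and NDUFA12 lie left of 0 in both.

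With DOX the same contrast lay on the other side. Its median was 0.14 over the members, against 0.08 over 12228 genes, and 34 of 50 (68.0%) were above 0, against 55.7% of all genes. After centring the median was 0.02 and 27 of 50 (54.0%) were above 0. The medians as deposited were 0.13 for NDUF, 0.31 for SDH, 0.11 for UQCR with CYC1 and 0.15 for COX, and after centring 0.01, 0.20, -0.01 and 0.03, so that only the complex III median turned its sign. Members higher by 1.5-fold or more were NDUFA10 (0.76), NDUFA11 (0.65), NDUFA13 (0.62) and NDUFV1 (0.61), 4 of 50 against 22.9% of all genes. NDUFA5 (-0.65) and NDUFB6 (-0.65) were lower by as much, 2 of 50 against 12.6%. After centring 1 was higher and 3 were lower: NDUFA11 (0.53), NDUFA13 (0.50) and NDUFV1 (0.49) then lay under the line, NDUFA10 (0.65) did not, and NDUFS1 (-0.66) passed it. After loess 5 were higher and 2 lower.

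NDUFA11, an accessory subunit buried in the membrane arm, had 12.06 in ALDH-positive DOX and 11.41 in ALDH-negative DOX, and 11.60 in ALDH-positive control and 11.37 in ALDH-negative control. NDUFA13 had 11.68 in ALDH-positive DOX and 11.06 in ALDH-negative DOX, and 11.11 in ALDH-positive control and 11.09 in ALDH-negative control. The 2 genes differed in that NDUFA13 was level between the fractions without DOX. The other high values of NDUF were NDUFS4 (0.47) and NDUFS7 (0.45), and the other low ones NDUFS1 (-0.54), NDUFA12 (-0.39), NDUFV2 (-0.31) and NDUFS3 (-0.23). In COX, COX8A (0.54), COX5B (0.36) and COX6A1 (0.33) were highest, and COX7B (-0.26), COX7A2 (-0.11) and COX4I1 (0.01) lowest. SDHA differed by 0.34, SDHD by 0.31 and SDHC by 0.05, and UQCRC2 by 0.38, CYC1 by 0.29, UQCRB by 0.11, UQCRQ by -0.01 and UQCRC1 by -0.06.

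The DOX and the control arrays hold separate measurements of the fraction difference. Across the 50 members the 2 sets of differences correlated with a Pearson r of 0.70 and a Spearman rho of 0.71, against an r of 0.76 over 11915 genes; all members of a pair share their arrays, and the correlation is across genes, which are not replicates. The sign was the same in both for 33 members, 18 above 0, against 39.1% of all genes, and 15 below 0, against 34.4%. A further 16 were above 0 in DOX and below 0 in control, against 16.1%, among them all 3 SDH genes, and 1 (COX7A2) was the reverse, against 10.3%.

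The additive ALDH term passed for 6 of 50 members at an adjusted p under 0.05 (limma, Benjamini and Hochberg over 12365 genes), 2 higher and 4 lower in ALDH-positive cells. Over all genes 13.5% passed as higher and 9.58% as lower. The term averages the fraction difference over both treatments, and 12 members had an unadjusted p under 0.05, against 35.7% of all genes. Of the 12, 3 were higher, against 20.5% of all genes, and 9 lower, against 15.3%.

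By the brightest probe sets, all 4 that were lower belong to complex I, as do 32 of the 50 measured members. Of complex IV, COX7B passed as lower with the mean of probe sets and COX4I1 without shared probe sets. NDUFB6, a subunit of the membrane arm, had 10.23 in ALDH-positive DOX and 10.07 in ALDH-positive control, and 10.88 in ALDH-negative DOX and 10.86 in ALDH-negative control. Its ALDH difference was -0.72 ± 0.21 (SE, adjusted p = 0.0279). NDUFS1, the largest core subunit, which carries iron-sulfur clusters of the NADH-oxidising part, had 10.86 in ALDH-positive DOX and 10.86 in ALDH-positive control, and 11.40 in ALDH-negative DOX and 11.50 in ALDH-negative control. The difference was -0.59 ± 0.18 (SE, adjusted p = 0.0311). For both genes the fractions did not overlap, which passing the term on the same 4 values already favours. NDUFV2, another iron-sulfur subunit of that part, had 12.43 in ALDH-positive DOX and 12.41 in ALDH-positive control, and 12.74 in ALDH-negative DOX and 12.82 in ALDH-negative control, which gave -0.36 ± 0.10 (SE, adjusted p = 0.0242). NDUFA12, an accessory subunit of the peripheral arm, had 12.47 in ALDH-positive DOX and 12.64 in ALDH-positive control, and 12.86 in ALDH-negative DOX and 12.93 in ALDH-negative control, which gave -0.34 ± 0.10 (SE, adjusted p = 0.0238).

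The 2 that were higher belong to complexes III and IV. UQCRC2 had 12.71 in ALDH-positive DOX and 12.57 in ALDH-positive control, and 12.33 in ALDH-negative DOX and 12.31 in ALDH-negative control. Its difference was 0.32 ± 0.11 (SE, adjusted p = 0.0488). COX8A, the smallest subunit of complex IV, had 12.96 in ALDH-positive DOX and 12.66 in ALDH-positive control, and 12.42 in ALDH-negative DOX and 12.52 in ALDH-negative control. Its difference was 0.34 ± 0.11 (SE, adjusted p = 0.0483). After centring, and likewise after loess, NDUFB6 and NDUFS1 passed and the other 4 did not, with adjusted p up to 0.176 after centring. Without a trend in the variance model 0 of 50 members passed (lowest adjusted p = 0.0666), and 2 had an unadjusted p under 0.05.

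**Figure D4:**
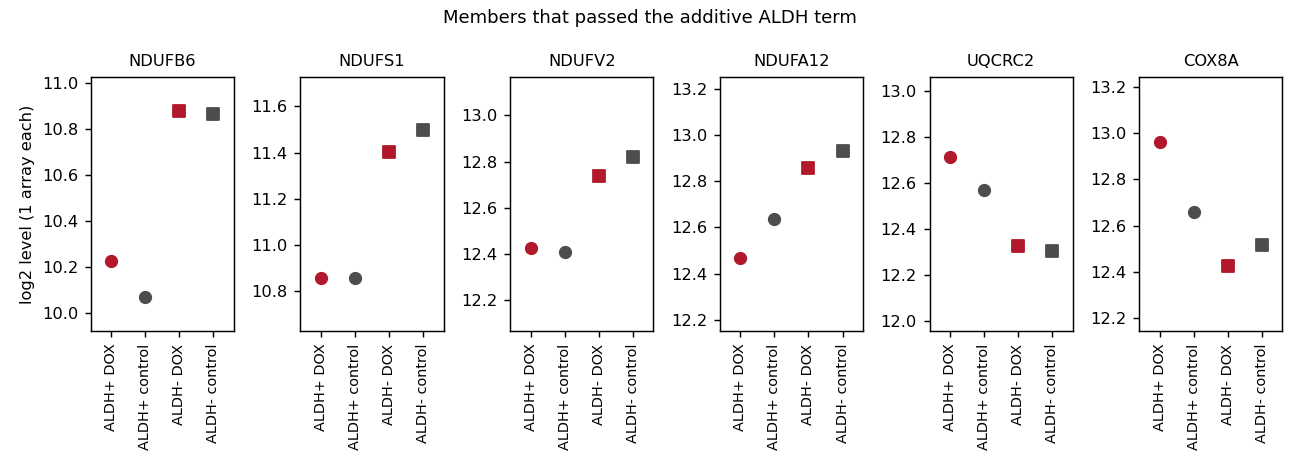
Log2 levels on each of the 4 arrays (1 point per array, y axes of equal span that do not start at 0) of the 6 subunit genes that passed the additive ALDH term. Both ALDH-positive points lie below both ALDH-negative points for NDUFB6, NDUFS1, NDUFV2 and NDUFA12, and above them for UQCRC2 and COX8A. The choice of genes by that term favours such a separation.

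Probe sets of the same gene did not always go the same way. The 50 genes had 101 probe sets, 88 of which reached a level of 6 on at least 1 array, and 28 genes had more than 1. Among genes with several probe sets at that level in a pair, all went one way for 12 of 20 genes with DOX in ALDH-positive cells, for 9 of 21 with DOX in ALDH-negative cells, for 12 of 22 between fractions in control and for 13 of 21 between fractions in DOX. NDUFB6 is the case that touches a result: its brightest probe set, 203613_s_at, differed by -0.65 in DOX and -0.79 in control, whereas 1559042_at differed by 1.43 and 0.81. That second probe set was dim, at 6.76 in ALDH-positive DOX and 6.12 in ALDH-positive control, and at 5.33 in ALDH-negative DOX and 5.30 in ALDH-negative control. With the shared kinds of probe set left out, NDUFB6 therefore turned to a difference of 1.12 (adjusted p = 0.0219), so no direction is given for it beyond its brightest probe set.

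For NDUFS1 a second probe set went the same way. This probe set, 229647_at, had 9.17 in ALDH-positive DOX and 9.05 in ALDH-positive control, and 9.86 in ALDH-negative DOX and 9.90 in ALDH-negative control, and alone gave an additive difference of -0.77 (adjusted p = 0.0430). Another, 236356_at, had 5.24 in ALDH-positive DOX and 8.13 in ALDH-positive control, and 9.36 in ALDH-negative DOX and 9.17 in ALDH-negative control. Its DOX difference in ALDH-positive cells was -2.89, where that of the brightest was 0.00.

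Other disagreements of that size involved probe sets dimmer than the brightest of the gene, some of them well above a level of 6. A second probe set of UQCRB, 209065_at, had 10.37 in ALDH-positive DOX and 10.46 in ALDH-positive control, and 10.92 in ALDH-negative DOX and 11.08 in ALDH-negative control. Its fraction difference was -0.55 in DOX and -0.62 in control, where that of the brightest was 0.11 and 0.08. For COX4I1, 227323_at had 8.40 in ALDH-positive DOX and 9.33 in ALDH-negative DOX, a difference of -0.93 beside 0.01. Between fractions in control, UQCRB had a probe set at -1.69 (244293_at), NDUFA10 at -1.29 (230501_at) and COX5A at -1.04 (229426_at), each beside a brightest probe set at 0.08 to 0.10. SDHC disagreed in both fraction contrasts, and COX6A1 (224344_at, -1.05) in the DOX one. With DOX in ALDH-positive cells, NDUFB2 had a probe set at -1.16 (240391_at) beside 0.35. Between fractions COX7B had 1 at -1.39 in DOX and -1.96 in control (239252_at), on the same side as its brightest at -0.26 and -0.19 but larger; with DOX its probe sets lay on opposite sides of 0. Probe sets on opposite sides of 0 with smaller differences were seen in at least 1 pair for NDUFA6, NDUFA7, NDUFB4, NDUFB7, NDUFC1, NDUFS4, COX5B, COX7C and UQCRC2.

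**Figure D5:**
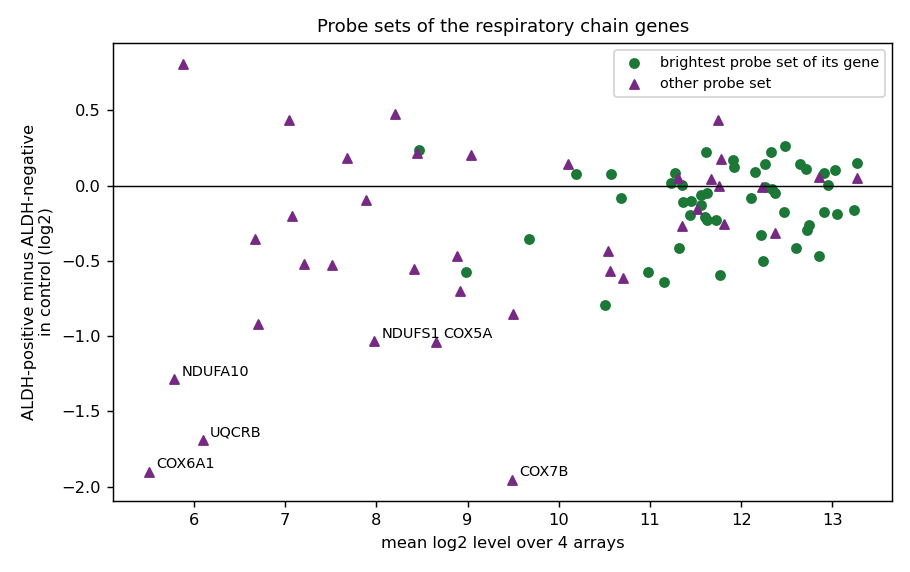
ALDH-positive minus ALDH-negative log2 difference in the control arrays (y axis) against the mean log2 level over the 4 arrays (x axis) for the members' probe sets that reached a level of 6 in the pair, with circles for the brightest probe set of a gene and triangles for the others. Circles lie between -0.79 and 0.27, while triangles, mostly dimmer, reach -1.96 for COX7B.

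Other genes of mitochondrial respiration are given by list, as medians in the order DOX in ALDH-positive, DOX in ALDH-negative, fractions in DOX, fractions in control. ATP synthase, the enzyme that uses the proton gradient (19 genes), had medians of 0.15, -0.04, 0.06 and -0.12, the third turning to -0.05 after centring. With DOX 18 of 19 were above 0 in ALDH-positive cells as deposited, 10 of 19 after centring, and 3 of 19 were above 0 in ALDH-negative cells. The largest was ATP5MC2, a gene of the membrane ring, with a difference of 0.66 in the ALDH-positive and of -0.23 in the ALDH-negative fraction. Complex I assembly factors (17 genes) had medians of 0.28, -0.01, 0.10 and -0.14, the second turning to 0.00 just above 0 after centring and loess and the third to -0.01 after centring. The assembly factors of complexes II to IV (33 genes) had 0.11, -0.04, 0.18 and -0.04, the first turning to -0.02 after centring. The COX11 copper factor differed by -1.43 with DOX in ALDH-positive cells. Citric acid cycle genes (12 measured of 14) had medians of 0.09, -0.04, 0.10 and -0.23, the first turning to -0.04 and the third to -0.02 after centring, with IDH3G at 0.98 and IDH3B at 0.78 with DOX in ALDH-positive cells.

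Regulators of mitochondrial biogenesis (16 genes) had medians below 0 in all 4 pairs as deposited, after centring and after loess, with deposited values of -0.09, -0.06, -0.13 and -0.11. Among them GABPB1, the partner of the ETS factor GABPA, differed by -1.14 with DOX in ALDH-positive cells, PPARGC1B by -0.92, TFB2M by -0.88 and PPARGC1A by 1.29. Subunits encoded in the mitochondrion itself (7 measured of 13) had medians of 0.16, 0.07, 0.27 and 0.11. Nuclear chain subunits outside the 56 (7 measured of 14) had medians of 0.04, -0.04, 0.14 and -0.07, the first turning to -0.10 after centring, with UQCR10 at 0.60 with DOX in ALDH-positive cells. Cytosolic ribosomal proteins (50 measured of 75), another set of bright housekeeping genes, had medians of 0.02, 0.01, 0.07 and 0.06. The first turned to -0.11 after centring and was 0.11 after loess, and the third turned to -0.04 after centring.

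The additive ALDH term passed for several genes of these lists, all by limma with adjustment over 12365 genes, of which 13.5% passed as higher and 9.58% as lower. Over the 8 lists 22 of 161 genes were higher and 11 lower, against 8 and 7 after centring, 19 and 5 after loess, 10 and 9 with the mean of probe sets, 7 and 1 of 167 without a filter on level, and 4 and 1 without a trend in the variance model. For ATP synthase 2 of 19 passed as higher (ATP5MC2, DMAC2L) and 2 as lower (ATP5MC3, ATP5ME). For assembly factors of complexes II to IV 4 of 33 passed as higher, with COX17, the copper chaperone, at 1.44 ± 0.29 (SE, adjusted p = 0.0040), and 3 as lower, with COX11 at -1.05 ± 0.26 (SE, adjusted p = 0.0132). COX11 had -0.08 with the mean of probe sets and 0.74 without shared probe sets, neither of which passed (adjusted p = 0.817 and 0.0905), nor did it pass without a filter on level, without a trend or with robust eBayes. COX17 passed under all 9 alternatives. In complex I assembly 1 of 17 passed, ACAD9, as lower. ACAD9 had -0.36 with the mean of probe sets and 0.10 without shared probe sets, neither of which passed (adjusted p = 0.259 and 0.863). In the citric acid cycle 1 of 12 was higher (SUCLG2) and 3 were lower, with IDH3A, which likewise passed under all 9, at -0.94 ± 0.18 (SE, adjusted p = 0.0032). TFAM, which packages and transcribes mitochondrial DNA, was the 1 regulator of 16 that passed, at -0.41 ± 0.13 (SE, adjusted p = 0.0352), and did not pass after centring (adjusted p = 0.0647), after loess (0.0650), without a filter on level (0.0933) or without a trend (0.197). The mitochondrially encoded subunits had 3 of 7 higher and 0 lower, with 1 higher after centring, 3 after loess and 0 without a trend. The other nuclear chain subunits had 2 of 7 higher (NDUFV3, COX7A2L) and 1 lower (CYCS). The ribosomal proteins had 10 of 50 higher and 0 lower, with 2 higher after centring and 9 after loess. With the mean of probe sets 5 ribosomal genes were higher, without a filter on level 3 and without a trend 0. The additive DOX term passed for 0 genes of these lists.

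Properties that the choice of genes did not use were set beside the DOX difference in ALDH-positive cells. The 7 members on chromosome 19 had a median of 0.53, from 0.27 to 0.76, against 0.19 for the 43 others. Over all genes the 803 on chromosome 19 had 0.28 and the others 0.11. In ALDH-negative cells the members' medians were 0.03 and -0.03. The GC content of the promoter window correlated with the difference at a Pearson r of 0.49 and a Spearman rho of 0.38 across 44 members. The r was 0.45 without the 2 of most extreme GC, against 0.00 across 9921 genes, with all genes sharing the same 2 arrays. Those 2 were COX7A2 and NDUFS4. NDUFA5, with a GC of 42.0% and the lowest difference of all members (-0.49), stayed in, and its part in the r was not tested. For the other pairs the members' r was -0.06 with DOX in ALDH-negative cells, 0.22 between fractions in DOX and -0.17 in control. The motifs were set beside the DOX difference in ALDH-positive cells. Members with and without NRF1 letters had medians of 0.32 and 0.25, with and without ETS letters 0.29 and 0.27, with and without YY1 letters 0.23 and 0.28, and with and without SP1 letters 0.30 and 0.26. The 4 motifs therefore split the members by 0.07 or less.

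Hybridisation targets for RNA quality differed on the same arrays. The DOX minus control difference of the 18S ribosomal RNA probe sets in ALDH-positive cells was -1.90 (3′ end), -0.30 (middle) and -1.94 (5′ end). The values in ALDH-negative cells were 0.45, 0.07 and 0.20 in the same order. ACTB differed by -0.46 at the 5′ end, -0.67 in the middle and -0.07 at the 3′ end in ALDH-positive cells, and GAPDH by 0.39, 0.25 and 0.16. Between the fractions, 18S differed by -1.29 (3′ end), -0.29 (middle) and -1.81 (5′ end) in DOX, and by 1.06, 0.08 and 0.34 in control. ACTB differed there by 0.17 at the 5′ end, -0.64 in the middle and -0.19 at the 3′ end in DOX, and by 0.53, 0.00 and -0.06 in control. GAPDH differed by 0.81, 0.44 and 0.16 in DOX and by 0.35, 0.18 and 0.04 in control. Their part in the members' differences was not tested.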

How the data were processed

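Total RNA of the sorted cells was labelled as biotinylated cRNA and hybridised to Affymetrix U133 Plus 2 arrays, 1 per group. The deposited values are log2 probe set levels, for which the submitters' processing notes name RMA (version not given in the sources used here). No further scaling was applied. Of 54675 probe sets, 62 were controls, and an annotation of 2016 paired 41097 with a single gene, 1801 with several and 11777 with none; current symbols came through gene identifiers. The probe set with the highest mean stood for its gene, and 12365 of 19775 genes reached a log2 level of 6. The additive model was fitted with limma 3.58.1 (eBayes with trend, prior of 11.6 degrees of freedom) in R 4.3.3 and tested on simulated data; p-values are two-sided and reflect only the spread of these 4 arrays, which may be technical. Other steps used Python 3.11.15, numpy 2.4.6 and pandas 2.3.3. Members and lists were chosen with earlier results of these data known. Named were all SDH, UQCR and CYC1 members, per pair the 6 highest and 6 lowest NDUF and 3 highest and 3 lowest COX members, members past 1.5-fold, passing a term or with discordant probe sets, and up to 4 genes of each other list. Alternatives were centring, cyclic loess, no filter or a level of 7, a floor at 6, averaged probe sets, no shared probe sets, each probe set alone, 2-fold, and eBayes without trend or robust. The number of arrays limits the precision.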

Additional observations from a re-analysis of the deposited data

Results flagged for a closer look

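In 3 genes the 2 differences of a contrast lay on opposite sides of 0, each by more than the gene's residual spread in the additive model. That spread equals the standard error of a term averaged over 2 pairs. It is computed in part from the divergence of the 2 differences and in part from all genes, so the rule is not independent of what it flags. The error of a difference between 2 single arrays is larger, so the flag is a loose one. The difference between the 2 was not tested, since each group held 1 array. COX4I1, the regulatory subunit of complex IV, differed between DOX and control by 0.17 in ALDH-positive cells and by -0.11 in ALDH-negative cells, where the spread was 0.10. NDUFB10, a membrane-arm subunit of complex I, differed between ALDH-positive and ALDH-negative cells by 0.29 with DOX and by -0.21 without, with a spread of 0.17. COX6B1, a subunit on the intermembrane side of complex IV, differed between the fractions by 0.14 with DOX and by -0.18 without, with a spread of 0.10. With each array centred on its median, COX4I1 differed by 0.03 in ALDH-positive cells and COX6B1 by 0.03 between the fractions with DOX. Both lay under the standard error, so that only NDUFB10 (0.18 and -0.18) kept both values beyond it. Without shared probe sets, COX4I1 lay at -0.21 for the ALDH-positive pair and 0.01 for the ALDH-negative pair, each on the other side of 0. The dimmer probe set 227323_at stands for COX4I1 there. COX6B1 kept its values in that setting, and NDUFB10 had only shared probe sets.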

How the results depend on the processing

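The members' median difference in each of the 4 pairs moved by less than the members' typical residual spread under every alternative. That spread is one of single genes, which is a wide yardstick for a median over 50. After centring the median went from 0.26 to 0.13 with DOX in ALDH-positive cells and from 0.14 to 0.02 between fractions in DOX. It went from -0.02 to -0.01 with DOX in ALDH-negative cells and from -0.08 to -0.05 between fractions in control. Leaving out the filter, a level of 7 and a floor at 6 could not move a member's difference between 2 arrays, since the lowest member level was 8.09. Averaging could not move the 22 members with 1 probe set. Such fixed values are counted among the unmoved ones that follow, so this tally is no measure of stability. For single members, 1240 values moved by less than the gene's spread or kept their call, and 125 moved further. A further 28 lost the additive call, and 6 turned their sign. A turn of sign was counted only for members that passed 1.5-fold or the additive ALDH term as deposited. With DOX in ALDH-positive cells 3 members differed by 1.5-fold, all higher, against 1 higher and 1 lower after centring and with the mean of probe sets, 2 higher after loess, 6 without shared probe sets, 13 of 85 when every probe set was counted, and 0 at 2-fold. Between fractions in control there were 3, all lower, against 2 lower after centring and after loess, 6 without shared probe sets, 14 of 88 probe sets, and 0 at 2-fold. Between fractions in DOX there were 6, 4 higher and 2 lower, against 1 higher and 3 lower after centring, 5 and 2 after loess, 3 with the mean of probe sets, 20 of 87 probe sets, and 0 at 2-fold. The additive ALDH term passed for 6 members, against 2 after centring, 2 after loess, 2 with the mean of probe sets, 0 without a filter on level and 0 without a trend, where 11 and 2 had an unadjusted p under 0.05. For all these counts, the cause was not tested. All 6 values that turned their sign were those of NDUFB6. Between fractions in DOX, NDUFB6 was at 0.39 with the mean of probe sets and 1.43 without shared ones. In control it was at 0.011 and 0.81, and for the additive term at 0.20 and 1.12. The dim probe set 1559042_at stands for NDUFB6 in the settings without shared probe sets. No paired analysis was possible because the labels give no replicate numbers and each group held 1 array. No array could be left out, since no residual degree of freedom would remain. Levels under 6 lie near background, so that their differences have uncertain sizes.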
